A study of Mus musculus with 144 samples.

Results

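Chromosomes 14 and 15, 2 of the 21 with a copy number state (19 autosomes, X and Y), were examined as a pair because both were above 2 copies in most cells of both T-cell acute lymphoblastic lymphomas (T-ALLs) analysed here cell by cell. A further T-ALL that the study sequenced in this way was not analysed here. They were chosen by their gains in these same cells, so the gains are given as a description and are not tested. Copy number states of both chromosomes were present for 46 of 46 single nuclei of T-ALL 1, 44 of 46 of T-ALL 2 and 45 of 46 of an untransformed thymus, 135 cells in all. Each tumour came from its own mouse, homozygous for the floxed alleles Mad2 f/f and p53 f/f and positive for Lck-Cre (Lck-Cre+). The thymus came from a mouse that was Mad2 wt and p53 wt and had no Cre transgene (Lck-Cre-), of the same C57BL/6/Sv129 strain, so genotype and transformation cannot be told apart in the comparison of tumour with thymus. The labels give T-cell as the cell type of all 3 samples, and DNA states hold no marker that could check this. Mice were followed for 3 to 4 months and killed once they showed dyspnea. The age of each animal was not given. Lck-Cre drives recombination in T-cells from the Lck promoter. A whole-chromosome state cannot show the deletion itself: Chr6, which carries Mad2l1 (chr6:66535221-66541107), averaged 1.96 ± 0.362 copies over the cells of T-ALL 1 (SD, 46 cells) against 2.05 ± 0.211 for T-ALL 2 (SD, 44 cells), and Chr11, which carries Trp53 (chr11:69580348-69591873), averaged 2.02 ± 0.257 and 1.98 ± 0.151.

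Mad2 belongs to the spindle assembly checkpoint, the signal that holds back anaphase while any chromosome is still unattached, and a cell without it can pass both copies of a replicated chromosome to 1 daughter. Gain of Chr15 is a well-known change in mouse T-cell lymphomas, and Chr15 carries Myc, the transcription factor that drives growth and division of T-ALL cells, and Il7r, the receptor chain through which interleukin 7 keeps immature T-cells alive. Chr14 carries the T-cell receptor alpha and delta genes, which are cut and rejoined in developing thymocytes.

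Chr14 also carries the miR-17 to miR-92a cluster, a set of microRNAs whose transcription MYC activates and which promotes lymphoma in mice. The mature sequences of 10 microRNAs are shown because their genes lie on these chromosomes and several share a seed, so may share targets. Their expression and targets were not measured, so a link of the gains to MYC through them was not tested. These microRNAs were picked with the copy number results known and are not a product of the gene lists described below. The sequences are from RefSeq on GRCm38.p6, and capitals mark the seed, bases 2 to 8 from the 5′ end.
The cluster of 6 lay within 813 bases of the plus strand, chr14:115043684-115044496, and is grouped here by seed, not by position. A pair shared the seed AAAGUGC.
mmu-miR-17-5p: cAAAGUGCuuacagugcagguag
mmu-miR-20a-5p: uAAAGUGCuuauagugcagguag
Another, which lies between the members of that pair, had the seed AAGGUGC.
mmu-miR-18a-5p: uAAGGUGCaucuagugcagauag
The miR-19 microRNAs shared GUGCAAA.
mmu-miR-19a-3p: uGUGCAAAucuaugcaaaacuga
mmu-miR-19b-3p: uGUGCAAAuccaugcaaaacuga
The last of the cluster by position had the seed AUUGCAC.
mmu-miR-92a-3p: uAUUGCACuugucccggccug
Chr14 also carries miR-15a and miR-16, which repress the anti-apoptotic gene Bcl2 and which shared the seed AGCAGCA, on the minus strand at chr14:61631936-61632096.
mmu-miR-15a-5p: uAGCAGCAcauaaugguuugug
mmu-miR-16-5p: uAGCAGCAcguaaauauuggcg
Chr15 carries a pair of let-7 genes, with the seed GAGGUAG, on the plus strand at chr15:85706616-85707346. Members of the let-7 family repress growth-promoting genes, Myc among them.
mmu-let-7c-5p: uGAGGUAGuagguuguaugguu
mmu-let-7b-5p: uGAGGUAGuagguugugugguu
The seeds differed in how many of their annotated loci lay on these chromosomes. In the RefSeq table, the miR-19 seed occurred at 3 mature loci, of which 2 were on Chr14, 1 on X and none on another autosome. The miR-18a seed had 2 loci, on Chr14 and X. The miR-17 seed had 7, with 2 on Chr14, 2 on another autosome and 3 on X. By contrast, 9 of the 13 loci with the let-7 seed and 8 of the 11 with the miR-15a seed lay on other autosomes, as did 4 of the 7 with the miR-92a seed.

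Neither chromosome was ever below 2 copies in any tumour cell. The same held for Chr1 in both tumours. It also held for Chr5, Chr12, Chr16 and Chr19 in T-ALL 1 and for Chr3, Chr4, Chr6, Chr13 and Chr17 in T-ALL 2. Autosomes below 2 in at least 1 cell numbered 12 of 19 in T-ALL 1 (63.2%) and 11 of 19 in T-ALL 2 (57.9%). In T-ALL 1, Chr14 had 2 copies in 7 cells, 3 in 15, 4 in 23 and 5 in 1. Chr15 had 2 copies in 4 cells, 3 in 18, 4 in 23 and 6 in 1. The mean was 3.39 ± 0.774 copies for Chr14 and 3.48 ± 0.752 for Chr15 (SD over 46 cells), with a median of 4 for both. The most common state of both chromosomes was 4, which was true of no other autosome of that tumour (2 of 19, 10.5%). The chromosomes of T-ALL 1 were thus alike in level and spread, with 24 of 46 cells at 4 or above for each (52.2%, exact Clopper-Pearson 95% interval 36.9% to 67.1%). These intervals cover counting error over the cells of 1 animal only.

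In T-ALL 2 the chromosomes parted. Chr14 was nearly uniform, with 4 copies in 39 of 44 cells (88.6%, interval 75.4% to 96.2%) and 3 in the other 5, and a mean of 3.89 ± 0.321. No cell had 2 copies of Chr14, which allows a share of up to 6.82%. Chr15 was mixed, with 2 copies in 3 cells, 3 in 31 (70.5%, interval 54.8% to 83.2%), 4 in 9 and 5 in 1, and a mean of 3.18 ± 0.582. It reached 4 or above in 10 of 44 cells (22.7%, interval 11.5% to 37.8%). Only Chr14 had 4 as its most common state there, 1 of 19 autosomes (5.26%). For Chr14, the interval of cells at 4 or above in T-ALL 2 lay above that of T-ALL 1. For Chr15 the intervals overlapped narrowly, between 36.9% and 37.8%. With 1 tumour sequenced in each animal, these are differences between 2 tumours and have no replicate check.

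**Figure D1:**
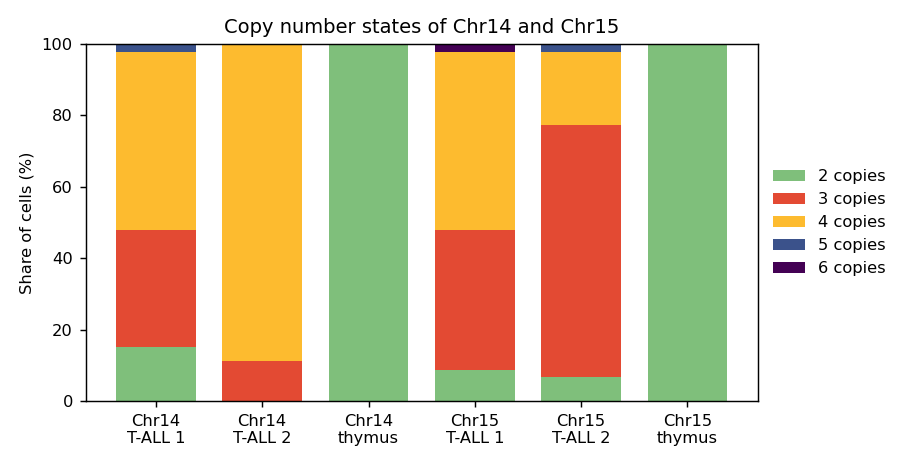
Share of cells (%, vertical axis) with 2 to 6 copies of Chr14 (3 bars on the left) and Chr15 (3 bars on the right) in the 46 cells of T-ALL 1, 44 of T-ALL 2 and 45 of the thymus. Chr14 and Chr15 are split alike between 3 and 4 copies in T-ALL 1, while 4 copies of Chr14 (88.6%) and 3 of Chr15 (70.5%) prevail in T-ALL 2.

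The thymus had 2 copies of each chromosome in 45 of 45 cells, which allows a share of gained cells of up to 6.67%. The wells that received 10 nuclei gave 4 copies of both chromosomes for T-ALL 1, 3 of both for T-ALL 2 and 2 of both for the thymus. The value for T-ALL 2 was below the mean of its single cells for Chr14 (3.89) and close to it for Chr15 (3.18). Wells without a nucleus had no state.

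Chr14 and Chr15 were set against the other 17 autosomes of the same cells. They had the highest mean copy number in both tumours, Chr15 before Chr14 in T-ALL 1 and Chr14 before Chr15 in T-ALL 2. In T-ALL 2, Chr15 at 3.18 ± 0.582 was within 1 SD of Chr4 (3.05 ± 0.480) and Chr5 (3.00 ± 0.374). Autosomes above 2 in the majority of cells numbered 4 of 19 in T-ALL 1 (21.1%) and 7 of 19 in T-ALL 2 (36.8%), and none in the thymus. In T-ALL 1, Chr15 was above 2 in 42 cells (91.3%, interval 79.2% to 97.6%) and Chr14 in 39 (84.8%, interval 71.1% to 93.7%). The nearest autosomes were Chr16, above 2 in 40 cells but never over 3, and Chr17, in 31. In T-ALL 2, Chr14 was above 2 in 44 of 44 cells and Chr15 in 41 (93.2%, interval 81.3% to 98.6%). Chr5 was above 2 in 43 cells of that tumour, Chr17 in 42 and Chr4 in 41, each with 3 as its most common state. Chr17 therefore was also above 2 in the majority of cells of both tumours, at 2.67 ± 0.560 copies for T-ALL 1 and 3.00 ± 0.305 for T-ALL 2.

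**Figure D2:**
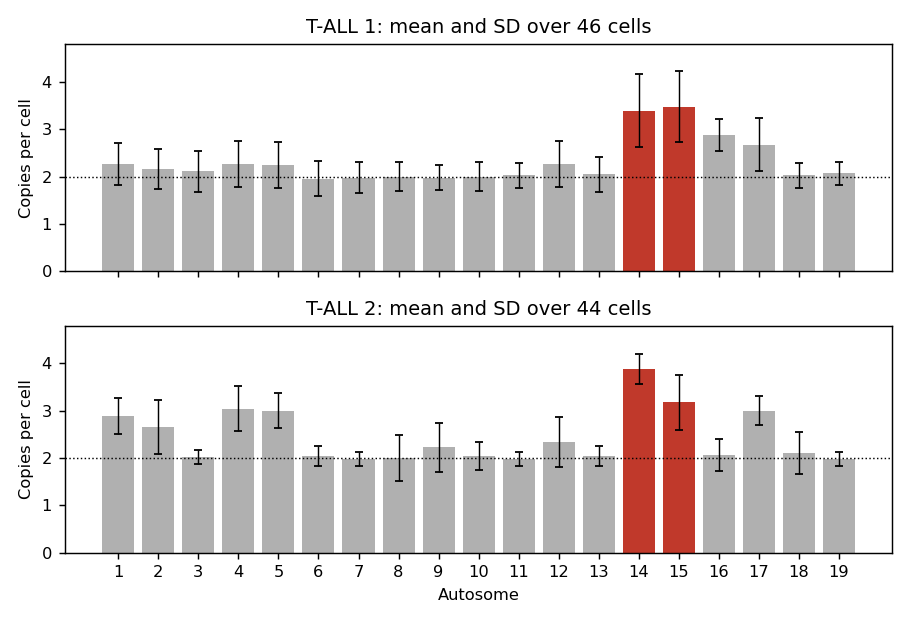
Copies per cell (vertical axis, bars are means and whiskers SDs over the cells of 1 tumour) for each of the 19 autosomes (horizontal axis), with Chr14 and Chr15 in red and a dotted line at 2. The red bars are the highest in both panels, at 3.39 and 3.48 in T-ALL 1 and 3.89 and 3.18 in T-ALL 2. In T-ALL 2, Chr4 follows closely at 3.05.

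Most states of 4 or above lay on these 2 chromosomes. In T-ALL 1, 48 of 52 such calls (92.3%) were on Chr14 or Chr15, against 4 of 782 calls on the other autosomes. In T-ALL 2 it was 49 of 61 (80.3%), of which 39 were on Chr14 and 10 on Chr15, against 12 of 748 on the other autosomes. At least 1 cell at 4 or above was seen for 6 of 19 autosomes in T-ALL 1 (31.6%) and 9 of 19 in T-ALL 2 (47.4%). Counted as copies above 2, the pair held 132 of 286 extra autosome copies in T-ALL 1 (46.2%), with 64 on Chr14 and 68 on Chr15. It held 135 of 388 in T-ALL 2 (34.8%), with 83 on Chr14 and 52 on Chr15. The pair makes up 10.5% of the autosomes. It was chosen by its gains in these same cells, so shares above 10.5% follow from the choice and do not show enrichment.

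Per cell, the number of extra copies on the pair was 2.87 ± 1.13 for T-ALL 1 against 3.07 ± 0.695 for T-ALL 2, a difference smaller than the SD over cells. The other 17 autosomes together carried 3.35 ± 2.27 extra copies per cell of T-ALL 1 and 5.75 ± 1.30 per cell of T-ALL 2. The share of a cell's extra copies that lay on Chr14 and Chr15 had a median of 50% in T-ALL 1 (range 0% to 75%, 43 cells with an extra copy) and of 33.3% in T-ALL 2 (range 20% to 50%, 44 cells). In no tumour cell were Chr14 and Chr15 the only autosomes away from 2.

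The spread between cells was also unequal. Chr14 had the highest SD of the 19 autosomes in T-ALL 1 and Chr15 the second. In T-ALL 2, Chr15 had the highest SD (0.582), whereas Chr14 ranked 11. Chr2 (0.568), Chr12 (0.526) and Chr9 (0.522) were close to Chr15 in that tumour.

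The joint states showed how the gains were combined within cells. In T-ALL 1, 39 of 46 cells had both chromosomes above 2, 3 had Chr15 alone above 2, 4 had neither, and none had Chr14 alone above 2. Each of the 39 cells with Chr14 above 2 thus had Chr15 above 2, and 39 of the 42 with Chr15 above 2 had Chr14 above 2 (92.9%). The only cells of T-ALL 1 without Chr15 above 2 were the 4 with neither, which also had 2 copies of Chr16 and Chr17. Outside these 4, Chr15 was above 2 in every cell, so Chr14 alone could not occur there. In T-ALL 2, 41 of 44 cells had both above 2 and 3 had Chr14 alone. Since Chr14 was above 2 in all 44 cells of that tumour, no cell could have Chr15 alone or neither. Joint gain was not particular to this pair. By cells with both above 2, it ranked 2 among all pairs of autosomes in T-ALL 1 and 3, with ties, in T-ALL 2. Chr15 and Chr16 were both above 2 in 40 cells of T-ALL 1, and Chr14 and Chr16 in 37. Chr5 and Chr14 were both above 2 in 43 cells of T-ALL 2, and Chr14 and Chr17 in 42.

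The combinations were spread over 8 classes in T-ALL 1 and over 5 in T-ALL 2. The cells of T-ALL 1 most often had 4 copies of each (12 cells), followed by 4 of Chr14 with 3 of Chr15 (11), 3 with 4 (9) and 3 with 3 (6). These counts were close to the products of the separate frequencies of the states, which give 11.5, 9, 7.50 and 5.87 cells. The class with 2 copies of each chromosome departed from that product, with 4 cells against 0.609. In T-ALL 2 the most common combination was 4 copies of Chr14 with 3 of Chr15. It was seen in 26 of 44 cells (59.1%, interval 43.2% to 73.7%), where the product gives 27.5. That interval does not cover a split by cell number, with 19 of 23 even-numbered (82.6%) and 7 of 21 odd-numbered cells (33.3%). Of the other cells of T-ALL 2, 9 had 4 of each, 5 had 3 of each, 3 had 4 of Chr14 with 2 of Chr15, and 1 had 4 with 5.

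**Figure D3:**
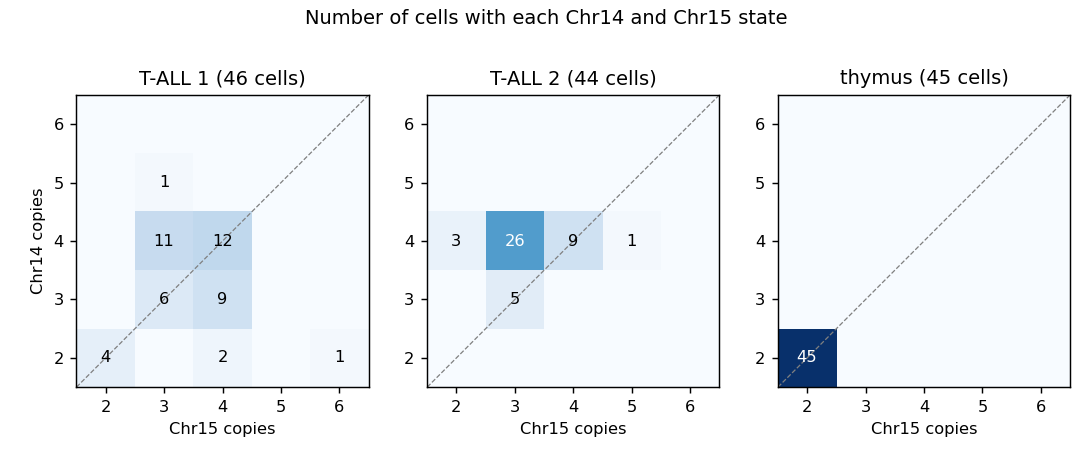
Number of cells in each combination of Chr14 copies (vertical axis) and Chr15 copies (horizontal axis) in T-ALL 1, T-ALL 2 and the thymus. Shading deepens with the printed number, and the dashed line marks equal copies. T-ALL 1 is spread on both sides of the line, T-ALL 2 is concentrated on 4 copies of Chr14 with 3 of Chr15 (26 cells), and all 45 thymus cells are at 2 of each.

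The sum of both chromosomes was the same in the middle of each tumour but was made up differently. The sum had a median of 7 in T-ALL 1 (6.87 ± 1.13, range 4 to 8) and of 7 in T-ALL 2 (7.07 ± 0.695, range 6 to 9). Of the 20 cells of T-ALL 1 with a sum of 7, 11 had more Chr14 and 9 more Chr15. All 26 cells with that sum in T-ALL 2 had more Chr14.

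The ratio of Chr14 to Chr15 per cell averaged 1.01 ± 0.265 over the cells of T-ALL 1, ran from 0.333 to 1.67 and had a median of 1. Chr14 equalled Chr15 in 22 of its cells (47.8%, interval 32.9% to 63.1%), exceeded it in 12 and was below it in 12. In T-ALL 2 the mean ratio was 1.26 ± 0.262, the median 1.33 and the range 0.8 to 2. Chr14 exceeded Chr15 in 29 of those cells (65.9%, interval 50.1% to 79.5%), equalled it in 14 (31.8%, interval 18.6% to 47.6%) and was below it in 1. The cells of T-ALL 1 were balanced between the chromosomes, whereas those of T-ALL 2 leaned to Chr14 in the mean. The mean ratio was 1.25 in odd-numbered and 1.27 in even-numbered cells of T-ALL 2. However, Chr14 equalled Chr15 in 52.4% of its odd-numbered and 13.0% of its even-numbered cells. Its well with 10 nuclei had 3 copies of both and did not show the lean. The thymus had a ratio of 1 in every cell.

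Over all cells, no clear correlation was seen between the states of Chr14 and Chr15. Pearson's r was 0.0912 and Spearman's rho 0.0656 in T-ALL 1 (46 cells), and 0.113 and 0.123 in T-ALL 2 (44 cells). The intervals of r over cells, -0.204 to 0.372 in T-ALL 1 and -0.190 to 0.397 in T-ALL 2, spanned both signs. Both states of a cell come from 1 library. Among all pairs that 19 autosomes can form, this pair ranked 68 by r in T-ALL 1 and 40 in T-ALL 2. A few cells decided both the sign and the rank in T-ALL 1. Without the 4 cells at 2 copies of Chr14 to Chr17, r was -0.386 (42 cells) and the pair ranked 170, the second lowest. Without cell 10, r was 0.275 and the rank 25 (45 cells). With all 5 of these cells left out, r was -0.228 and the rank 151 (41 cells). Over the cells with both chromosomes above 2, r was -0.142 in T-ALL 1 (39 cells) and 0.202 in T-ALL 2 (41 cells).

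Shares of T-ALL 1 cells with Chr15 at 4 or above had overlapping intervals at 3 and 4 copies of Chr14, and were not tested. Chr15 was at 4 or above in 9 of 15 cells with 3 copies of Chr14 (60%, interval 32.3% to 83.7%) and in 12 of 23 with 4 (52.2%, interval 30.6% to 73.2%). In T-ALL 2 it was at 4 or above in 0 of 5 cells with 3 copies of Chr14 and in 10 of 39 with 4 (25.6%, interval 13.0% to 42.1%). With 5 cells in the first group, this comparison cannot decide whether the shares differ.

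Chr17 was above 2 more often at 4 than at 3 copies of Chr14 in T-ALL 1. It was above 2 in all 23 cells with 4 copies of Chr14 (interval 85.2% to 100%), in 6 of 15 with 3 (40%, interval 16.3% to 67.7%) and in 2 of 7 with 2. The intervals for 3 and 4 copies did not overlap, but they cover counting error over the cells of 1 animal and are not a test. The single cell with 5 copies of Chr14, cell 30, went the other way and did not have Chr17 above 2. By Chr15 state it was above 2 in 14 of 18 cells at 3 (77.8%, interval 52.4% to 93.6%) and in 16 of 23 at 4 (69.6%, interval 47.1% to 86.8%), which overlapped widely. In T-ALL 2 it was above 2 in 37 of 39 cells with 4 copies of Chr14 and in 5 of 5 with 3. The classes of cells were made after their states were seen, and no test was made of them.

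**Figure D4:**
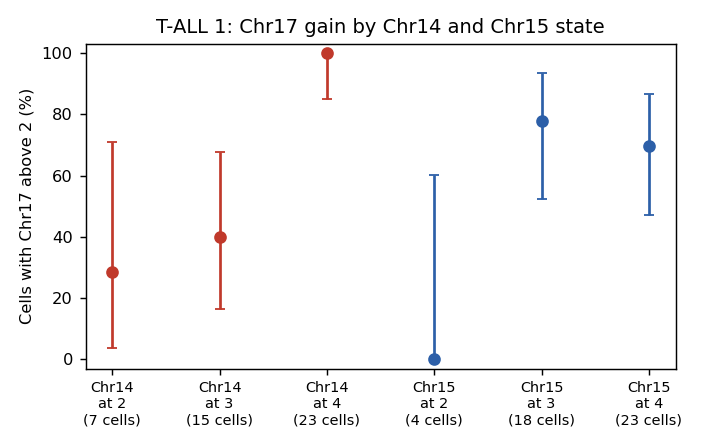
Share of T-ALL 1 cells with Chr17 above 2 copies (%, vertical axis; points are shares and whiskers exact Clopper-Pearson 95% intervals) by the state of Chr14 (red) and of Chr15 (blue). The cell with 5 copies of Chr14, which did not have Chr17 above 2, and the cell with 6 of Chr15 are left out of their series. Of the states shown, only 4 copies of Chr14 reaches 100% of cells.

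A few cells stood at the edges of the joint distribution. Cells 25, 27, 38 and 41 of T-ALL 1 held 2 copies of both chromosomes. The first, second and last of these had 2 copies of every autosome, and cell 38 had a gain of Chr12 only. Whether these 4 were tumour cells was not tested, and they are counted in the T-ALL 1 values unless stated otherwise. The 3 cells with Chr15 alone gained were not near diploid. Cell 1 (4 copies of Chr15) also had gains of Chr4, Chr12 and Chr16 and losses of Chr9, Chr13 and Chr18. Cell 33 (4 copies of Chr15) had gains of 6 other autosomes, and cell 10, with 6 copies of Chr15, had gains of 7. Their other autosomes away from 2 averaged 6.33 ± 0.577, against 3.72 ± 2.61 over all cells of that tumour. Cell 30 alone had 5 copies of Chr14, with 3 of Chr15.

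Cells 1, 3 and 9 of T-ALL 2 held 4 copies of Chr14 with 2 of Chr15. They had 5.67 ± 2.08 other autosomes away from 2, close to the 5.54 ± 1.07 of the 26 cells with the most common combination. Cell 40 was the single cell with more Chr15 than Chr14, 5 against 4, and had 12 other autosomes away from 2, with 7 gained and 5 lost. Apart from the near-diploid cells, the numbers of other autosomes away from 2 lay within 1 SD of each other in the joint states of 5 cells or more. In T-ALL 1 it was 4.5 ± 2.81 at 3 copies of each, 3.67 ± 2.55 at 3 of Chr14 with 4 of Chr15, 3.91 ± 2.98 at 4 with 3 and 3.67 ± 2.19 at 4 of each. In T-ALL 2 it was 5.60 ± 1.52 at 3 of each and 5.78 ± 1.30 at 4 of each.

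Cell numbers split T-ALL 2, though the labels do not say what order the numbers follow. The combination of 4 copies of Chr14 with 3 of Chr15 was seen in 19 of 23 even-numbered cells (82.6%, interval 61.2% to 95.05%). It was seen in 7 of 21 odd-numbered ones (33.3%, interval 14.6% to 57.0%). These intervals did not overlap, but they cover counting error over the cells of 1 animal and are not a test. All 3 cells with 2 copies of Chr15 were odd-numbered, and so were 4 of the 5 with 3 copies of Chr14. In T-ALL 1 the most common combination was seen in 7 of 23 even-numbered and 5 of 23 odd-numbered cells. Read depth, plate position and batch were not given for these cells, and their part in the split was not tested.

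States were called for whole chromosomes, and a gene was given that of the chromosome it lies on, so neighbours add no evidence to one another. Chr14 held 2328 annotated genes, 851 of them protein-coding, and Chr15 held 1775 and 776. Together they had 4103 of 47042 annotated autosomal genes (8.72%) and 1627 of 20665 protein-coding ones (7.87%). By number of protein-coding genes they ranked 13 and 15 of 19. Lists of genes with known roles in T-ALL, chromosome segregation and survival placed 22 of 155 autosomal members on the pair (14.2%), 10 on Chr14 and 12 on Chr15. The lists were written with the gains known.

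Among 28 T-ALL oncogenes, 2 were on the pair (7.14%, below the 8.72% of all annotated autosomal genes), both on Chr15. They were Myc (chr15:61985341-61990361) and Il7r (chr15:9506159-9529941), each at 3.48 ± 0.752 copies for T-ALL 1 and 3.18 ± 0.582 for T-ALL 2. Of 17 genes of the MYC network, 2 were on the pair (11.8%). These were Myc and its neighbour Pvt1, a long noncoding RNA gene (chr15:62037986-62260215). Of 21 genes of interleukin 7 and JAK-STAT signalling, 5 were on Chr15 (23.8%): Il7r, the oncostatin M receptor Osmr, the leukemia inhibitory factor receptor Lifr, the common beta chain Csf2rb and the interleukin 2 receptor beta chain Il2rb.

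The T-cell receptor list had 4 of 18 members on the pair (22.2%), which form 1 locus on Chr14. They were Tcra (chr14:52427967-54224198), Tcrd, which lies inside it, and the constant regions Trac and Trdc. Their 3.39 ± 0.774 copies for T-ALL 1 and 3.89 ± 0.321 for T-ALL 2 are those of the whole chromosome. Rearrangement of the locus in these cells cannot be read from such a state. The single tumour suppressor on the pair, of 23 (4.35%), was Rb1 (chr14:73192858-73325951), which restrains entry into S phase, and it was gained with Chr14.

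Cohesin, the ring that holds sister chromatids together until anaphase, had the largest share of the lists on the pair, with 7 of 19 autosomal members (36.8%). Chr14 carried Wapl, which releases cohesin from DNA, Esco2, which acetylates it, and Rec8, its meiotic kleisin. Chr15 carried Rad21 (chr15:51962604-51993538), the mitotic kleisin, Nipbl, which loads the ring, Espl1, the separase that cuts it, and the meiotic subunit Smc1b. The share of all annotated autosomal genes on the pair was 8.72%. The lists were written with the gains known, so a list above that share does not show enrichment. No set test was made. The BCL2 family, which governs mitochondrial cell death, had 3 of 20 members there (15%): the anti-apoptotic Bcl2l2 and the pro-apoptotic Bnip3l on Chr14, and the pro-apoptotic Bik on Chr15. None of 18 spindle checkpoint genes was on either chromosome.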

How the data were processed

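The authors deposited 1 table per animal of whole-number copy number states by well and chromosome, 144 libraries in all. Nuclei in G1 were sorted, their DNA was digested with micrococcal nuclease, and pooled libraries were run on an Illumina sequencer. Build mm10 and the tools SAMtools 0.1.18, Bowtie2 2.1.0 and bcl2fastq 1.8.2 are named in the submitters' notes, and AneuFinder in the study's methods. The program behind the states was not given in the sources used here. States are relative to the rest of a library, so a doubling of all chromosomes does not show, and read depth is unknown. Wells without a call were left out. The chromosomes and gene lists were chosen with earlier results of these data known. Genes named were all list members that RefSeq (GRCm38.p6) places on Chr14 or Chr15, plus Mad2l1 and Trp53, and all list entries were matched. The microRNAs were added outside that rule. Cells are not replicates, so each animal counted as 1 sample and no test was made. Shares have exact Clopper-Pearson 95% intervals, and a share of 0 a limit of 3 counts. SDs are over cells. Alternatives left out cells, used odd- or even-numbered cells, or changed the reference state, ratio, correlation or interval. Code was tested on simulated data. Tools were SciPy 1.17.1, pandas 2.3.3, NumPy 2.4.6, Matplotlib 3.10.9 and Python 3.11.15.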

Additional observations from a re-analysis of the deposited data

Results flagged for a closer look

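A signal appeared in a column outside the comparisons above, that of the Y chromosome. In T-ALL 1 the Y state was above 0 in 46 of 46 cells, including the 4 with 2 copies of both Chr14 and Chr15, against 0 of 45 thymus cells. The tumour and the thymus therefore differed in the state of Y besides genotype, and its part in the Chr14 and Chr15 values was not tested. Tumour and thymus came from different mice, and whether these differed in sex was not tested. The Y state of T-ALL 2 is not given here.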

How the results depend on the processing

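Of 174 values recomputed under alternatives, 6 moved beyond the interval or SD of the reported value and 2 turned sign. For the other 166 this says little of stability: means were set against the SD over single cells, which is a wide bound, the Wilson setting leaves a share as it is, and the gene list background had no interval. In T-ALL 1, leaving out the 4 cells at 2 copies of Chr14 to Chr17 brought the share with Chr15 above 2 from 91.3% to 100%, by construction since these were all its cells at 2 copies of Chr15, and turned the correlation of Chr14 and Chr15 from 0.0912 to -0.386. In even-numbered cells the correlation was -0.227. Removing any 1 cell gave 0.0120 to 0.275. In even-numbered cells of T-ALL 2, 100% had Chr15 above 2 and 100% had both chromosomes above 2. Equal copies were seen in 52.4% of its odd-numbered and 13.0% of its even-numbered cells, against 31.8% of all. Relative to the other 17 autosomes of the same cell, scaled to 2, Chr14 of T-ALL 2 had a mean of 3.35 in place of 3.89. Leaving out cells without gains of Chr14 to Chr17 removed no cell of T-ALL 2. Cell 10 of T-ALL 1, cell 40 of T-ALL 2 and the cells with both chromosomes above 2 were singled out after seeing the data. The cause of these shifts was not tested beyond the cells left out. No paired analysis was possible because cell numbers only name cells of different animals and no test was made. Depth is unknown, each state covers a whole chromosome, and 2 tumours limit what can be said beyond them.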
